A study of Mus musculus with 10 samples.

Results

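The genes examined were 4 collagen hydroxylases, P4ha1, P4ha2, Plod1 and Plod2, and the collagen oxidase Lox, in mouse hepatocytes under hypoxia with and without HIF-1alpha, the oxygen-regulated subunit of hypoxia-inducible factor 1. Members were all probe sets whose platform annotation gave 1 of these 5 symbols and no other. Of 12488 probe sets, 5 qualified and stood for 3 of the 5 genes, among 8252 genes with a probe set in all: 104139_at for P4ha1, 98983_at and 162188_f_at for P4ha2, and 160095_at and 161177_f_at for Lox. No probe set carried the symbol Plod1 or Plod2, so both lysyl hydroxylases were not analysed here. Total RNA of hepatocytes was measured on 10 arrays in 4 groups. These were 3 arrays labelled HIF-1alpha null under hypoxia, 3 arrays of wild-type cells with an adeno treatment under hypoxia, 2 arrays of adeno-treated cells in normoxia and 2 arrays of untreated cells in normoxia. What the adeno treatment carried, whether the null cells received it, how HIF-1alpha was removed, and the oxygen level and its duration are unstated in the labels. There was no normoxic null group, so genotype was compared under hypoxia only.

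Newly made collagen chains are hydroxylated in the endoplasmic reticulum before they leave the cell. P4ha1 and P4ha2 are the catalytic alpha subunits of collagen prolyl 4-hydroxylase, which pair with the beta subunit P4hb, and hydroxyproline keeps the collagen triple helix stable at body temperature. Plod1 and Plod2 hydroxylate lysines, and outside the cell Lox, a copper enzyme, oxidises lysines and hydroxylysines so that fibres cross-link. The hydroxylases use oxygen, iron and 2-oxoglutarate, and genes of both kinds are known hypoxia-inducible factor targets in several cell types. In liver, stellate cells and fibroblasts make most fibrillar collagen and hepatocytes make little.

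The upstream sequences of the prolyl hydroxylase genes are shown because both genes were highest in hypoxic wild-type cells. They were taken from RefSeq on GRCm38.p6, and capitals mark ACGTG or GCGTG, the cores of the hypoxia response element, read on either strand. The P4ha1 stretch is chr10:59323046-59323196 and the P4ha2 stretch is chr11:54100674-54100923, both on the plus strand, and each ends just before the first annotated base of its gene.
P4ha1: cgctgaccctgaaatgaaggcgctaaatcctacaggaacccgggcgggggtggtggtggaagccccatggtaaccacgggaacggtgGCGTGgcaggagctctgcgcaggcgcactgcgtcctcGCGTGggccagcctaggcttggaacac
P4ha2: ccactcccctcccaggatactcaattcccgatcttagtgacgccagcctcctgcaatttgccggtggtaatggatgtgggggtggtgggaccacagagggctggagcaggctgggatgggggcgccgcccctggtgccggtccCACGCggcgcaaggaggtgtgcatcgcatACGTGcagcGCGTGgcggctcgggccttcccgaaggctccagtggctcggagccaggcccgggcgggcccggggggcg
In the 250 bases before the start, P4ha1 held 3 cores. Distances are from the start used in the promoter table, which for P4ha1 lies downstream of the gene's first annotated base, so that the core nearest the start lies within the annotated gene. GCGTG began 163 and 126 bases upstream and ACGTG lay on the opposite strand 16 bases upstream, past the end of the stretch shown. P4ha2 also held 3 cores, GCGTG on the opposite strand at 107 bases, ACGTG at 78 and GCGTG at 69. Plod1 held 1 core, GCGTG at 20 bases. Plod2 and Lox had no promoter sequence in the source used and were not searched. Of 32851 mouse promoters of the same length, 16.6% held ACGTG, 28.2% held GCGTG, 38.6% held either and 6.58% held 3 or more cores. A match is a run of letters and does not show that a factor binds there.

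Values are the deposited scaled intensities, and the array medians lay between 60 and 70.9. A change is a difference of group means of log2(intensity + 4.7), fitted with limma over all 10 arrays, and it understates the change of dim probe sets. The Benjamini-Hochberg adjustment covered the 7453 probe sets bright enough to be tested, and the threshold was 0.05. The labels number the arrays within each group, and a second fit with that number as a replicate block is given where it changed a call. Nothing states that the arrays came from separate cultures, so p-values measure the spread between these samples, which may be technical. The number 3 arrays stood apart in both hypoxic groups, where the log2 signal of the 18S controls was 12.18 (labelled null) and 12.33 (wild type). It was 7.38 to 8.97 for the remaining hypoxic arrays and 5.98 to 10.25 in normoxia. Hif1a itself was not lower on the arrays labelled null. Its probe set 98628_f_at read 1647.1, 1010.5 and 850 on those, against 961.8, 703.2 and 711.2 on hypoxic wild-type arrays. Where that probe set lies relative to the deleted part is not given, so it does not check the label. Known hypoxia-inducible factor targets, given further on, were lower on average on these arrays in 20 of 20 probe sets. They were chosen with these results known, and none passed without the block. Hepatocyte genes were also lower in 16 of 18 probe sets, while the median change over all probe sets was 0.024. These signs therefore do not check the label either. The hepatocyte label was borne out by Alb, the albumin gene, at 8038.9 to 13761.2 on all 10 arrays.

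Both prolyl hydroxylase genes were higher in hypoxic wild-type cells than in normoxic adeno-treated cells on every array, and Lox at its brighter probe set, 160095_at, was higher in both same-number pairs. P4ha1 read 367.9, 257.8 and 210.6 on hypoxic wild-type arrays, against 134.6 and 179.7 on normoxic adeno-treated arrays. The groups did not overlap, and the hypoxic number 1 array was the highest. The means were 279 ± 80.7 (SD, n = 3) in hypoxic wild-type cells and 157 ± 31.9 (SD, n = 2) in normoxic adeno-treated cells.

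The main P4ha2 probe set, 98983_at, read 790.2, 893.6 and 623.8 on hypoxic wild-type arrays, against 480.4 and 476.2 on normoxic adeno-treated arrays. The groups did not overlap, with means of 769 ± 136 (SD, n = 3) and 478 ± 2.97 (SD, n = 2) in the same order. The other P4ha2 probe set, 162188_f_at, read 360.8, 295.3 and 307.7 on hypoxic wild-type arrays, against 131.8 and 147.5 on normoxic adeno-treated arrays. Every hypoxic array was above both normoxic arrays here too. The suffix _f marks a probe set whose probes may also match related transcripts.

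Lox at 160095_at read 551.5, 468.8 and 143.3 on hypoxic wild-type arrays, against 218.5 and 276.5 on normoxic adeno-treated arrays. The groups overlapped, because the hypoxic number 3 array was below both normoxic arrays. The dim Lox probe set 161177_f_at read 44.1, 12.5 and 32 on hypoxic wild-type arrays, against 13.7 and 35.8 on normoxic adeno-treated arrays. It averaged 29.9 over all arrays, failed the brightness filter and had r = 0.13 with the brighter probe set over the 10 arrays, and its same-number differences were 1.41 and -1.24. On normoxic untreated arrays it read 25.1 and 33. In a fit without the filter it changed by 0.20 (adjusted p = 0.982) in hypoxic wild type minus normoxic adeno-treated.

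**Figure D1:**
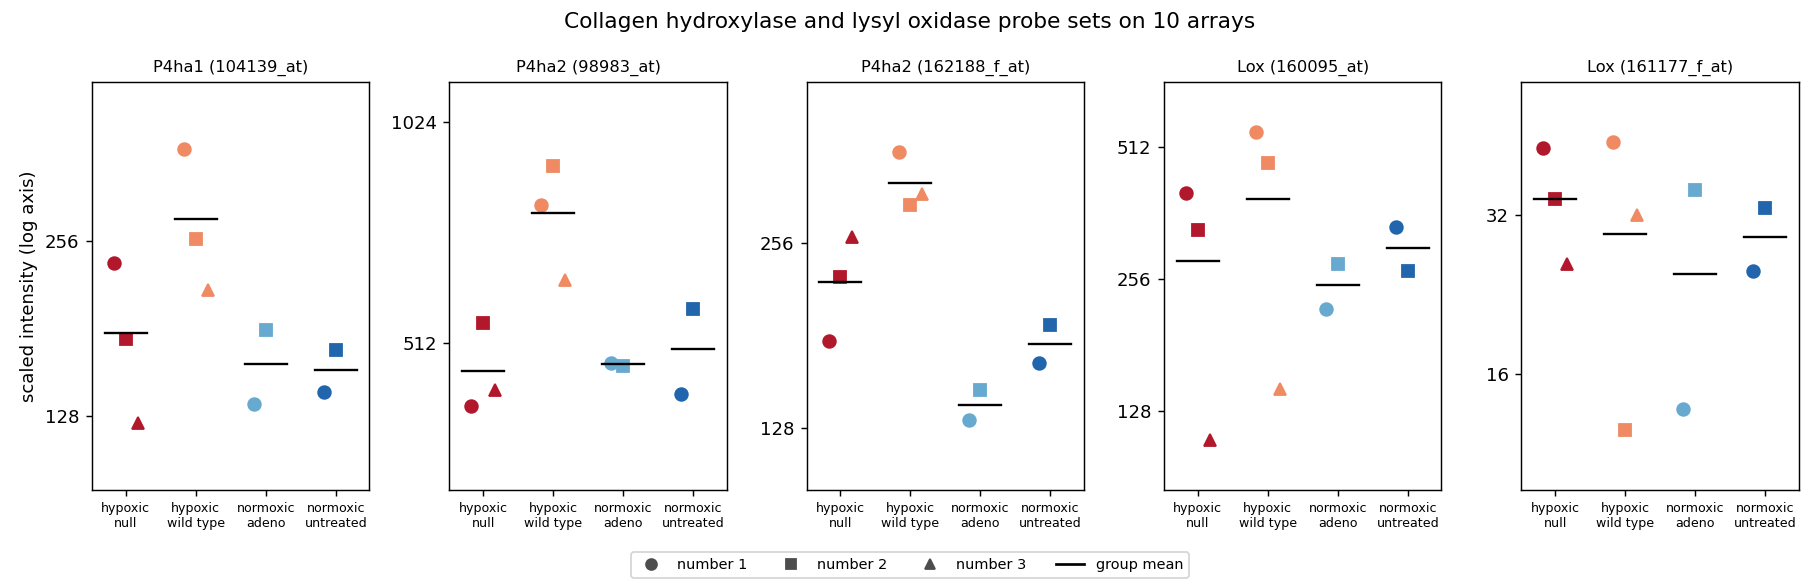
Scaled intensity (log axis) of the 5 member probe sets on each of the 10 arrays, by group, with the marker shape giving the array number and a bar for the group mean. Hypoxic wild-type points sit above the normoxic adeno-treated points for P4ha1 and both P4ha2 probe sets, and the number 3 arrays are the lowest hypoxic points for Lox 160095_at.

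In the limma fit without the block the change from normoxic adeno-treated cells in hypoxic wild-type cells was 0.78 (SE 0.30, adjusted p = 0.534) for P4ha1, a 1.72-fold difference. It was 0.66 (SE 0.21, adjusted p = 0.412) for P4ha2 at 98983_at and 1.17 (SE 0.21, adjusted p = 0.0599) at 162188_f_at, a 2.25-fold difference. For Lox it was 0.44 (SE 0.61, adjusted p = 0.918), the widest error of the 4. These changes were above those of 96.9%, 95.3%, 98.9% and 89.7% of all probe sets, in that order. None of the 4 member probe sets tested passed, against 0.322% of all probe sets called higher. An unadjusted p under 0.05 was found for 3 of 4, and for 595 of all 7453 probe sets. That the groups do not overlap, as for 3 of 4 members, held for 11.7% of all probe sets in this direction.

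With the replicate block, 3 of the 4 rose, where 1.48% of all probe sets did. No normoxic array was numbered 3, so in this fit the hypoxic number 3 arrays were set only against each other. Lox read 143.3 on the wild-type one, below both normoxic adeno-treated arrays (218.5 and 276.5), and that reading had no normoxic partner. P4ha2 rose by 0.75 at 98983_at (adjusted p = 0.0367) and by 1.12 at 162188_f_at (adjusted p = 0.0221). Lox rose by 1.02 (SE 0.18, adjusted p = 0.0237), a 2.02-fold difference, and P4ha1 was at 0.99 (SE 0.23, adjusted p = 0.0571). Between same-number arrays the Lox difference was 1.32 and 0.75, and that of P4ha1 was 1.42 and 0.51. Leaving out 1 array of either group lost some or all of these calls. The changes stayed positive, at 0.59 to 0.92 for 98983_at, 0.87 to 1.23 for 162188_f_at and 0.71 to 1.32 for Lox. With the block, no member was called without the wild-type number 1, the wild-type number 2 or the adeno-treated number 1 array. Lox alone was called without the adeno-treated number 2 array (1.32, adjusted p = 0.0406), and Lox and 162188_f_at were called without the wild-type number 3 array. Set against all 4 normoxic arrays, with the block, all 4 members were called, P4ha1 at 0.999 (adjusted p = 0.0195). In that setting 226 of all 7453 probe sets were called higher.

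All 4 member probe sets tested were lower on hypoxic arrays labelled null than on hypoxic wild-type arrays, and none passed the test. P4ha1 read 234.7, 173.5 and 124.6 on arrays labelled null, against 367.9, 257.8 and 210.6 on wild-type arrays. The groups overlapped at 1 array, since the number 1 array labelled null exceeded the wild-type number 3 array. The means were 178 ± 55.2 in null and 279 ± 80.7 in wild-type cells (SD, n = 3 each).

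P4ha2 at 98983_at read 419.3, 544.1 and 441.2 on arrays labelled null, against 790.2, 893.6 and 623.8 on wild-type arrays. At 162188_f_at the readings were 177, 225.2 and 262.4 on arrays labelled null, against 360.8, 295.3 and 307.7 on wild-type arrays. Neither pair of groups overlapped. That was so for 2 of 4 members, where 2.75% of all probe sets had every array labelled null below every wild-type array.

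Lox at 160095_at read 401.2, 330.2 and 110 on arrays labelled null, against 551.5, 468.8 and 143.3 on wild-type arrays. The groups overlapped widely, and the number 3 array was the lowest in each. Lox at 161177_f_at read 42.9, 34.4 and 25.9 on arrays labelled null, against 44.1, 12.5 and 32 on wild-type arrays, with no common direction.

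The null minus wild-type change by limma was -0.64 (95% interval -1.25 to -0.037, adjusted p = 0.999) for P4ha1, which left 0.640 of the wild-type level. For P4ha2 at 98983_at it was -0.70 (-1.13 to -0.28, adjusted p = 0.672) and at 162188_f_at -0.54 (-0.95 to -0.13, adjusted p = 0.999). For Lox it was -0.44 (-1.67 to 0.78, adjusted p = 0.999). None of 4 members was called, against 0% of all 7453 probe sets, of which 259 had an unadjusted p under 0.05, 3 of the members among them. With the block none was called either, where 0.0939% of all probe sets were called lower, and the lowest member value was adjusted p = 0.0773 for P4ha2 at 98983_at.

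Between arrays of the same number, each of these 4 probe sets was lower on the array labelled null in 3 of 3 pairs, as were 14.4% of all probe sets. P4ha1 differed by -0.64, -0.56 and -0.74 in pairs 1, 2 and 3, and Lox by -0.45, -0.50 and -0.37, a narrow range for both. P4ha2 at 98983_at differed by -0.91, -0.71 and -0.50, and at 162188_f_at by -1.01, -0.38 and -0.23, a wide one. Without pairing, the Lox value depended on single arrays. It was 0.12 without the number 3 array labelled null and -1.04 without the wild-type number 3 array, and -0.48 without both.

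**Figure D2:**
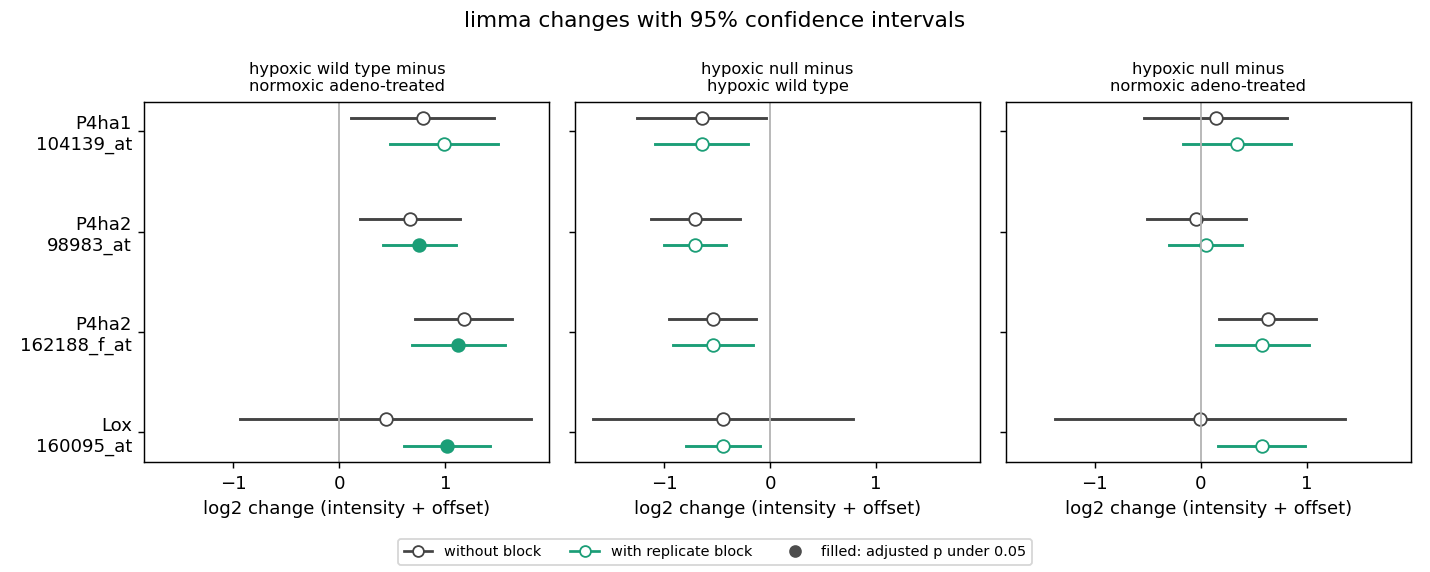
Change in log2(intensity + offset) with its 95% confidence interval for the 4 member probe sets tested, in 3 comparisons, without (grey) and with (green) the replicate block; filled points have an adjusted p under 0.05. Filled points are seen only with the block in hypoxic wild type minus normoxic adeno-treated, at 98983_at, 162188_f_at and Lox, and all points of null minus wild type lie below 0.

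**Figure D3:**
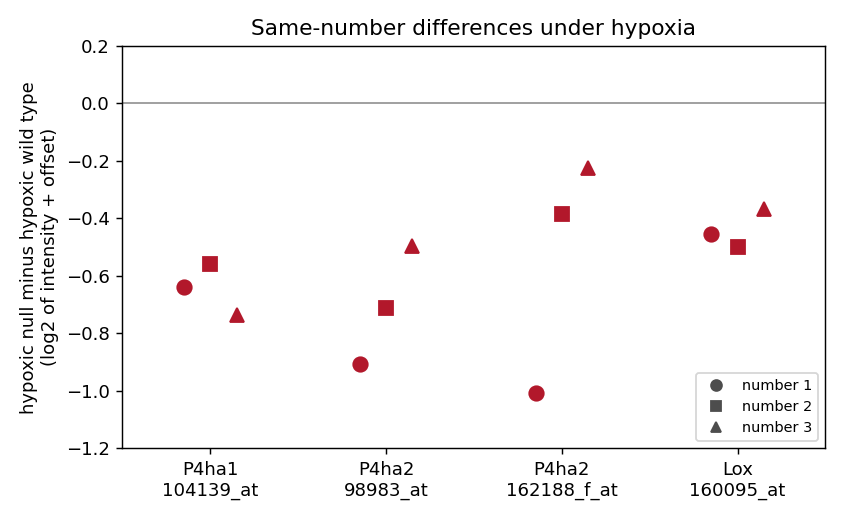
Hypoxic null minus hypoxic wild-type difference in log2(intensity + offset) between arrays of the same number, for the 4 member probe sets tested, with the marker shape giving the number. All points lie below 0; those of P4ha1 (-0.74 to -0.56) and Lox (-0.50 to -0.37) are close together and those of P4ha2 are more spread.

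The 3 genes were then compared for the size of their null minus wild-type change, each at its brightest probe set, by an exact two-sided permutation test over arrays. With 3 arrays against 3 the smallest possible p is 0.1, so the design cannot reach 0.05. P4ha1 minus P4ha2 differed by 0.060 (exact permutation p = 0.9), with 0.27, 0.15 and -0.24 in the same-number pairs. P4ha1 minus Lox differed by -0.20 (exact permutation p = 0.6), with -0.18, -0.059 and -0.37. P4ha2 minus Lox differed by -0.26 (exact permutation p = 0.7), with -0.45, -0.21 and -0.13. At these brightest probe sets the fall on arrays labelled null was thus larger for either hydroxylase than for Lox in 3 of 3 pairs. At the other P4ha2 probe set, 162188_f_at, the changes were -1.01, -0.38 and -0.23, against -0.45, -0.50 and -0.37 for Lox. There the order held in the first pair only. Without pairing the differences were under the spread between arrays, with an adjusted p of 0.9 for all 3 gene pairs. Over the same-number pairs P4ha1 minus Lox was -0.20 ± 0.16 and P4ha2 minus Lox -0.26 ± 0.17 (SD, n = 3 pairs), both larger than their spread, and P4ha1 minus P4ha2 was 0.060 ± 0.27. Sign flips over the same-number pairs, where the smallest exact p is 0.25, gave adjusted p = 0.375 for both comparisons with Lox. These tests do not show that the genes depend alike on HIF-1alpha. Taken over all probe sets of a gene, P4ha1 minus Lox was -0.57 and P4ha2 minus Lox -0.55, since the dim Lox probe set had a positive mean change (0.30). That probe set had no common direction, with -0.036, 1.18 and -0.26 in the same-number pairs.

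Against normoxic adeno-treated cells, hypoxic cells labelled null gave overlapping readings for P4ha1, Lox and P4ha2 at 98983_at. P4ha1 averaged 178 ± 55.2 in null cells (SD, n = 3) and 157 ± 31.9 in normoxic adeno-treated cells (SD, n = 2), a change of 0.14 (95% interval -0.54 to 0.82, adjusted p = 0.933). P4ha2 at 98983_at averaged 468 ± 66.6 in null cells and 478 ± 2.97 in normoxic adeno-treated cells, a change of -0.040 (-0.51 to 0.43, adjusted p = 0.977). At 162188_f_at every array labelled null exceeded both normoxic arrays, as in 13.8% of all probe sets, and the change was 0.63 (0.17 to 1.09, adjusted p = 0.342). Lox stood at -0.0041 (-1.37 to 1.37) without the block and at 0.58 (adjusted p = 0.0964) with it. None of the 4 was called in either fit, where 0.443% of all probe sets were called in either direction without and 5.81% with the block. Without the block 1 member had an unadjusted p under 0.05, as had 728 of all 7453 probe sets. This comparison shares its arrays with the 2 above, so the 3 are not independent, and in it genotype, hypoxia and a possible difference in the adeno treatment cannot be told apart.

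No member passed the test between adeno-treated and untreated cells in normoxia. P4ha1 read 134.6 and 179.7 on adeno-treated arrays, against 141 and 166 on untreated arrays. P4ha2 at 98983_at read 480.4 and 476.2 on adeno-treated arrays, against 435.7 and 570 on untreated arrays. P4ha2 at 162188_f_at was lower on both adeno-treated arrays (131.8 and 147.5) than on both untreated ones (163 and 188.3), as were 24.4% of all probe sets. Lox read 218.5 and 276.5 on adeno-treated arrays, against 336 and 266 on untreated arrays. The changes were 0.023 for P4ha1, -0.059 and -0.32 for P4ha2 and -0.28 for Lox, with adjusted p between 0.743 and 0.991. None of 4 members, and 0% of all probe sets, was called by limma. No member had an unadjusted p under 0.05, while 619 of all 7453 probe sets had. With the block no member was called, where 0.242% of all probe sets were.

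By mean over the 4 groups, P4ha1 stood at 178 in hypoxic null, 279 in hypoxic wild-type, 157 in normoxic adeno-treated and 154 in normoxic untreated cells. Wild-type hypoxic cells were thus the highest, and the 3 lower groups were within their spread of each other. P4ha2 at 98983_at stood at 468 in hypoxic null, 769 in hypoxic wild-type, 478 in normoxic adeno-treated and 503 in normoxic untreated cells, again with 3 lower groups within their spread. At 162188_f_at the means were 222 ± 42.8 in hypoxic null, 321 ± 34.8 in hypoxic wild-type, 140 ± 11.1 in normoxic adeno-treated and 176 ± 17.9 in normoxic untreated cells (SD, n = 3, 3, 2 and 2). Null and untreated arrays overlapped there, and the other neighbours in the order did not. Lox averaged 280 ± 152 in hypoxic null, 388 ± 216 in hypoxic wild-type, 248 ± 41.0 in normoxic adeno-treated and 301 ± 49.5 in normoxic untreated cells (SD, n = 3, 3, 2 and 2), and no neighbours in the order differed beyond their spread.

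Markers of collagen-making cells were present on these arrays and varied with the array number. Of 22 stellate cell and fibroblast markers 18 had a probe set and none was at 0, with Acta2, a smooth muscle actin, at 1399 to 3535.2 and Col1a1, the main collagen I chain, at 851.9 to 3873.2. Vim, a mesenchymal filament gene, was dim at 4.2 to 59.2. Their summed intensity was 16577.8, 11381.4 and 5683.5 on arrays labelled null, 17460.7, 13024.3 and 6163.3 on hypoxic wild-type arrays, 10008.9 and 10798.7 on normoxic adeno-treated and 9909.1 and 9390.8 on normoxic untreated arrays. The number 1 arrays were highest and the number 3 arrays lowest in both hypoxic groups, as for Lox and P4ha1 and unlike P4ha2 at 98983_at. Of the 21 stellate cell and fibroblast probe sets tested, 0 were called in null minus wild type, with a median change of -0.076. In hypoxic wild type minus normoxic adeno-treated 0 were called, with a median of 0.16, or 0.45 with the block, where Lox rose. Their part in the result was not tested, and in RNA of whole cultures fewer cells of a type and less RNA per cell cannot be told apart.

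Markers of other cell types were summed in the same way. Macrophage markers had 11 of 12 genes on the array and summed to 617.6 to 798.3 on arrays labelled null, 500.9 to 954.1 on hypoxic wild-type, 490 to 585 on normoxic adeno-treated and 492.9 to 650.1 on normoxic untreated arrays. Of the 11 genes 6 passed the brightness filter, among them C1qc (124.7 to 183.1) and Cd68 (65.9 to 254.1), while Ptprc (2.3 to 4.9), Itgam (3.7 to 14.8) and Adgre1 (6.9 to 20.2) were dim. Endothelial markers (10 of 12 genes) summed to 522.6 to 1219.6 on arrays labelled null, 530.1 to 1393.9 on hypoxic wild-type, 667.6 to 830.3 on normoxic adeno-treated and 946.5 to 1130.8 on normoxic untreated arrays, and most of that was Eng. Biliary markers (5 of 8 genes) summed to 1244.5 to 3159.7 on arrays labelled null, 885.1 to 3995.2 on hypoxic wild-type, 462.2 to 972.2 on normoxic adeno-treated and 476.5 to 1191.6 on normoxic untreated arrays. Hepatocyte genes (17 of 20) summed to 59745.3 to 68217.4 on arrays labelled null, 55125 to 77580.4 on hypoxic wild-type, 67965.1 to 86657.2 on normoxic adeno-treated and 55792.5 to 63160 on normoxic untreated arrays. In hypoxic wild type minus normoxic adeno-treated, 1 of 4 biliary probe sets rose without the block and 3 with it, none of the 2 endothelial ones passed in either fit, and 1 of 7 macrophage ones rose and 4 of 18 hepatocyte ones fell with the block only. In null minus wild type, 1 hepatocyte probe set fell with the block and no other marker of these 4 lists passed in either fit. Their part in the members' results was not tested.

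**Figure D4:**
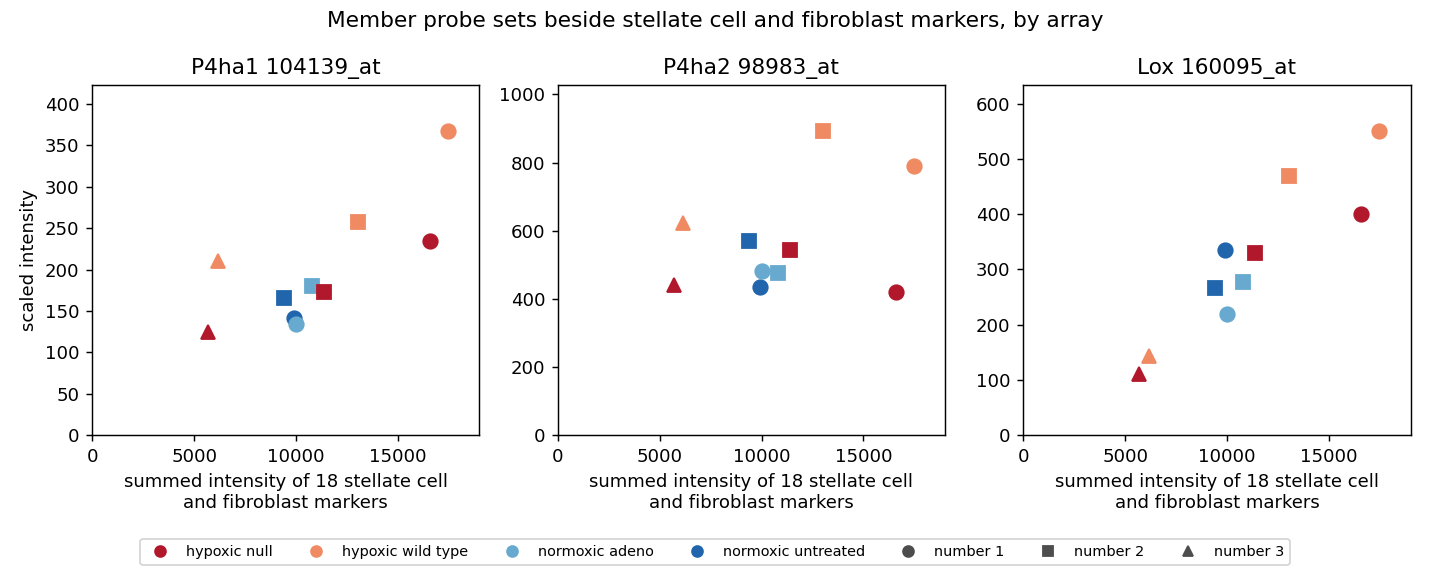
Scaled intensity of P4ha1, P4ha2 (98983_at) and Lox (160095_at) against the summed intensity of 18 stellate cell and fibroblast markers, 1 point per array, with the group in colour and the array number in shape. Lox is lowest on the 2 number 3 arrays, which also have the lowest marker sums, and P4ha2 on the hypoxic number 3 arrays lies within or above the range of the normoxic points.

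No other gene of the collagen-processing pathway passed the test. Of 32 genes listed for collagen folding, modification and cross-linking, 19 had a probe set and 17 were tested through 22 probe sets. In hypoxic wild type minus normoxic adeno-treated, 0 were higher and 0 lower in either fit, with a median change of -0.11 against -0.023 over all probe sets. The smallest p-values were those of Bmp1, which trims procollagen (0.56 at 92701_at, adjusted p = 0.681), Plod3, another lysyl hydroxylase (0.57 at 161253_i_at, adjusted p = 0.752), Sec23a, a coat protein of vesicles that carry collagen (-1.40 at 93711_at, adjusted p = 0.765), and Ppib, a prolyl isomerase (-0.29, adjusted p = 0.788). Probe sets of a gene differed in sign, since in the same comparison the other Plod3 probe sets stood at 0.32 (95009_at) and -0.21 (160742_at) and the other Bmp1 probe set at -0.32 (95557_at). In null minus wild type 0 were called in either fit, the median was 0.00070, and 11 probe sets were positive and 11 negative. The smallest p-values there were those of Sec23a (1.16 at 93711_at), P3h3, a prolyl 3-hydroxylase (-0.42), Plod3 (-0.36 at 160742_at) and Ppib (-0.22), each with an adjusted p of 0.999. The other Plod3 probe sets stood at 0.39 (95009_at) and -0.048 (161253_i_at), so no direction is given for Plod3.

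Collagen chains, the substrates of these enzymes, were tested through 28 probe sets for 21 of 32 listed genes. None was called without the block in either comparison, and the medians were 0.0096 in hypoxic wild type minus normoxic adeno-treated and -0.052 in null minus wild type. With the block 1 rose in hypoxic wild-type cells, Col6a1, a collagen VI chain, by 0.74 (adjusted p = 0.0366). Col6a1 averaged 251 (139.9 to 336.4) in hypoxic wild-type and 183 (166.6 to 199.5) in normoxic adeno-treated cells, so the readings overlapped. With the block it also rose in null minus normoxic adeno-treated, by 0.69 (adjusted p = 0.0300). So did Col4a2, a collagen IV chain, by 0.82 (adjusted p = 0.0376). Its readings overlapped too, at 284.2 to 1483.2 on arrays labelled null and 553.1 to 694 on normoxic adeno-treated arrays. Without the block its change was 0.18 (adjusted p = 0.969). These were 2 of 28 probe sets, where 5.81% of all probe sets were called in either direction with the block.

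Other dioxygenases that need 2-oxoglutarate and oxygen, as P4ha1 and P4ha2 do, were tested through 9 probe sets of 34 listed genes. None was called without the block. With it 2 rose in hypoxic wild-type cells against normoxic adeno-treated cells, Kdm3a, a histone demethylase, by 1.10 (adjusted p = 0.0241) and Egln1, a prolyl hydroxylase that marks HIF-alpha for destruction, by 0.91 (adjusted p = 0.0346). Egln1 averaged 313 on arrays labelled null, against 703 on hypoxic wild-type arrays, and fell by 1.19 with the block (adjusted p = 0.0352). The 9 probe sets had a median of 0.40 in hypoxic wild type minus normoxic adeno-treated and of -0.19 in null minus wild type, where 9 of 9 were negative. In null minus normoxic adeno-treated 1 was called lower with the block, Phyh at -0.77 (adjusted p = 0.0126). Its readings overlapped, at 364.4 to 870.8 on arrays labelled null and 612.3 to 902.8 on normoxic adeno-treated arrays. Of all probe sets 5.81% were called in either direction there.

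Known hypoxia-inducible factor targets of other pathways served as a measure of the response, and they were chosen with these results known. Of 20 probe sets 7 rose in hypoxic wild-type cells against normoxic adeno-treated cells without the block. Among them, Adm rose by 4.72 (adjusted p = 8.29e-05), Slc2a1, a glucose transporter, by 3.24 (adjusted p = 8.29e-05) and Hk2, a hexokinase, by 2.54 (adjusted p = 0.00345). Their median was 1.01, and the member values of 0.44 to 1.17 lay on both sides of it. In null minus wild type 20 of 20 were negative with a median of -0.61, and the member values of -0.70 to -0.44 did so as well. None passed without the block. With it 2 fell, Hk2 by 1.37 (adjusted p = 0.0260) and Egln1 by 1.19 (adjusted p = 0.0352). Egln1 is also among the dioxygenases above, so the lists share it.

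The genes whose log2 values ran most like each member over the 10 arrays differed between the members. The points share groups and array numbers, so these are descriptions only. P4ha1 was most like Gys1, a glycogen synthase (r = 0.90), then Wwp2 and Max (r = 0.88 each). P4ha2 at 98983_at was most like C1qb, a complement component (r = 0.90), Gys1 (r = 0.90) and Pfkl, a phosphofructokinase (r = 0.86). Lox was most like Morc4 (r = 0.97), Pdk3 and Ccn4 (r = 0.95 each). C1qb is a macrophage marker and was dim, at 48.7 to 115.5. Among the members, P4ha1 had r = 0.72 with P4ha2 at 98983_at and r = 0.68 with Lox, and the other P4ha2 probe set had r = 0.074 with Lox.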

How the data were processed

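The deposited table holds 1 column of scaled intensity per array. Per the submitters' labels these are hepatocyte total RNA arrays, while the software and background steps behind the deposited intensities are not given in the sources used. A trimmed mean of each array was 199.6 to 199.96, so arrays had been scaled to a common level. Probe sets were named from the platform annotation (10855 with 1 symbol, 396 with several and 1237 with none). After 66 control probe sets were left out, those under the 40th percentile of mean intensity (40.1) were dropped, leaving 7453. The log2 values of (intensity + 4.7, the 10th percentile) were fitted with limma 3.58.1 in R 4.3.3 on 4 group means with an intensity trend, with 6 residual degrees of freedom, or 4 with the replicate block. The fit was tested on simulated data. Same-number arrays deviated together in all 13 pairs (r = 0.10 to 0.68), most in the hypoxic arrays (0.54 to 0.68). Different-number pairs ranged from -0.51 to 0.25. That contrast is partly built in, because deviations were taken from group means. Within a normoxic group the deviations mirror each other. Same-number pairs between these groups therefore repeat r = 0.38, and different-number pairs are fixed at -0.38. The 13 values are thus not independent, though the sign of the same-number values is not fixed this way. The number was taken as pairing arrays on that sign, and the pairing was not tested otherwise. Members, lists and markers were chosen with earlier results of these data known. For each member the 3 genes most correlated over 10 arrays were named. Of each list, only a selection of the genes with the smallest p or called in a fit was named. Alternatives changed the offset, filter, normalization, block, control group and arrays. Precision is limited by the small number of arrays.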

Additional observations from a re-analysis of the deposited data

How the results depend on the processing

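Without the block, 0 members were called in hypoxic wild type minus normoxic adeno-treated; 1 was called with a 60th percentile filter and 1 against all 4 normoxic arrays (162188_f_at in both), and 3 with the replicate block. With the block, leaving out 1 array gave 0 to 2 members called, and with no filter 98983_at had adjusted p = 0.0567. Members called in the other 3 comparisons were 0 in all settings run. Of the single member changes, 198 alternatives without the block kept direction and call. The changes of sign were all in values near 0 or in Lox. Without the block, Lox in null minus wild type ran from -1.04 to 0.12 when 1 array was left out. In null minus normoxic adeno-treated, Lox was 0.0085 at 4 times the offset, 0.58 with the replicate block and 0.56 when both number 3 arrays were dropped, and P4ha2 at 98983_at was 0.050 with the block. Leaving out 1 array there gave -0.078 to 0.37 for P4ha1, -0.15 to 0.034 for P4ha2 and -0.35 to 0.56 for Lox. In adeno-treated minus untreated it gave -0.18 to 0.23 for P4ha1 and -0.25 to 0.13 for P4ha2. With the block, leaving out arrays turned P4ha2 in null minus adeno-treated to -0.0018 (also with both number 3 arrays dropped) and -0.11, and in adeno-treated minus untreated P4ha1 to -0.18 and -0.30, P4ha2 to 0.044 and 0.10 and Lox to 0.029. Between genes, leaving out 1 array moved P4ha1 minus P4ha2 between -0.23 and 0.25 (-0.09 without the wild-type number 2 array), P4ha1 minus Lox between -0.54 and 0.21 (0.0017 without the null number 2 array) and P4ha2 minus Lox between -0.79 and 0.19 (0.16 without the null number 1 array); over all probe sets of a gene P4ha1 minus P4ha2 was -0.022. The cause was not tested. Over all probe sets, calls in hypoxic wild type minus adeno-treated were 25, and 164 with the block, 42 against all 4 normoxic arrays and 3 to 21 without 1 array. With the block they were 455 against all 4 normoxic arrays, 106 with no filter, 98 when the number 3 arrays were dropped and 24 to 98 without 1 array. In null minus wild type 0 became 8 with the block and 1 when the number 3 arrays were dropped, and the 8 became 1 in that case or unfiltered, 12 after quantile normalization and 1 to 27 without 1 array (27 without the null number 1 array). In null minus adeno-treated 33 became 433 with the block, 18 without the number 3 arrays and 70 against all 4 normoxic arrays, and 3 to 24 when 1 array was left out; the 433 became 886 against all 4 normoxic arrays, 214 without the number 3 arrays, 255 unfiltered and 47 to 311 when 1 array was left out, lowest without the adeno-treated number 2 array. In adeno-treated minus untreated 0 became 18 with the block, and the 18 became 3 without the number 3 arrays, 1 unfiltered, 1 after quantile normalization and 1 to 41 when 1 array was left out (41 without the untreated number 1 array). Where 1 array was left of a group, its spread was taken from the remaining groups. The number of arrays limits the depth of these comparisons, and 161177_f_at was too dim to be tested with the filter.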
